A study of Homo sapiens with 16 samples.

Results

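The response to low oxygen was examined in HCT116 cells carrying an shRNA against TIP60, from 2 libraries of hypoxic cells and 2 of normoxic cells, chosen by the line and oxygen names in the headers of the count table. These are 4 of the 16 libraries of the study, which also holds HCT116 with a non-targeting shRNA (shNT), with an shRNA against CDK8, and with HIF1A deleted. HCT116 is an established human colorectal carcinoma line. Normoxic cells stayed at 21% oxygen, hypoxic cells spent 24 h at 1% oxygen, and poly(A) RNA was sequenced on an Ion Torrent instrument. shTIP60 hypoxic and normoxic cells both carried the TIP60 shRNA, so each of the 4 libraries comes from knockdown cells. The second line used here, shNT (2 libraries in each oxygen condition), served as the untargeted control for the comparison of responses. Each shRNA was a single stable line, so replication covers the cultures rather than the knockdown, and effects of the line itself cannot be told apart from loss of TIP60.

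Cells sense oxygen through prolyl hydroxylases (EGLN1 to EGLN3) that mark the HIF alpha subunits for destruction by VHL. When oxygen falls, HIF1A and EPAS1 (HIF2 alpha) pair with ARNT, bind hypoxia response elements that hold a short core sequence, and turn on genes for glucose use, acid export, vessel growth and mitochondrial turnover. TIP60, encoded by KAT5, is the acetyltransferase of the NuA4 chromatin complex, which has been studied as a coactivator of HIF1.

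Levels are given as CPM, read counts scaled to the same effective library size (TMM factors). A change is the log2 fold change, hypoxia over normoxia, with its SE and the adjusted p of the edgeR quasi-likelihood fit (Benjamini-Hochberg over the 15520 genes tested, of 23669 in the table). A gene is called when its adjusted p is under 0.05, and libraries A and B are the lower- and higher-numbered of each pair. KAT5 was at 20.2 and 19.1 CPM in normoxia and 22.0 and 21.0 CPM in hypoxia in shTIP60 and at 84.8 and 86.7 CPM in normoxia and 87.5 and 93.6 CPM in hypoxia in shNT, with every shTIP60 library below every shNT library. KAT5 was not called for hypoxia (log2 0.13 ± 0.13, adjusted p = 0.477). Total counts were 29562567 and 31433853 in normoxia and 34233119 and 34122226 in hypoxia, and 3 counts corresponded to 0.0851 to 0.0921 CPM. Epithelial identity was checked with 15 colon markers, of which TFF3 was at 0 in all 4 shTIP60 libraries and 6, with TFF3 among them, were below 1 CPM, while KRT8, KRT18, KRT19 and EPCAM were abundant. The summed level of the 15 was 7128 and 7032 CPM in normoxia and 9669 and 9469 CPM in hypoxia, mostly KRT8, KRT18 and KRT19. The sum hides members that went the other way. KRT20 went from 59.71 and 64.06 to 28.96 and 25.07 CPM, and CDX2 from 25.03 and 25.49 to 17.51 and 21.09 CPM. Of the 11 colon markers tested, 2 were called higher and 1 lower. Of 12 fibroblast markers, 4 (DCN, LUM, THY1, FAP) were at 0 and 8, including these, below 1 CPM in every library, and the summed level was 48.5 and 54.1 CPM in normoxia and 108 and 104 CPM in hypoxia. Most of that sum was COL1A1, at 33.7 and 38.9 CPM in normoxia and 81.9 and 77.8 CPM in hypoxia. Of 14 leukocyte markers, 2 (MS4A1 and FCGR3A) were at 0 and 8, including these, below 1 CPM, PTPRC was at 0 and 0 CPM in normoxia and at 0.0307 and 0.0304 CPM in hypoxia, and the sum (35.7 and 39.2 to 132 and 146 CPM) was carried by CD68 and ITGAX. Their part in the results was not tested. In these bulk libraries, fewer cells of a type and less RNA per cell cannot be told apart.

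The sequences below are the promoter windows of the strongest HIF target genes and of replication and mitosis genes, shown because many members of these groups moved in one direction. DTL, POLE2 and KIF11 were taken as the members of their lists with the lowest p whose window holds the motif. They are RefSeq windows from 250 bases before to 50 after the start (build GRCh38.p14), 5′ to 3′ on the gene's strand, in lower case with the matches in capitals. In ANGPTL4 (chr19:8363905-8364204, plus strand), ANKRD37 (chr4:185396591-185396890, plus strand), DDIT4 (chr10:72273674-72273973, plus strand), ADM (chr11:10304823-10305122, plus strand) and CA9 (chr9:35673678-35673977, plus strand) the capitals mark the hypoxia response element core, ACGTG or GCGTG on either strand. In DTL (chr1:212035498-212035797, plus strand) and POLE2 (chr14:49688165-49688464, minus strand) they mark the E2F motif TTTCGCGC or TTTGGCGC, and in KIF11 (chr10:92592880-92593179, plus strand) the cell cycle homology region TTTGAA.
ANGPTL4: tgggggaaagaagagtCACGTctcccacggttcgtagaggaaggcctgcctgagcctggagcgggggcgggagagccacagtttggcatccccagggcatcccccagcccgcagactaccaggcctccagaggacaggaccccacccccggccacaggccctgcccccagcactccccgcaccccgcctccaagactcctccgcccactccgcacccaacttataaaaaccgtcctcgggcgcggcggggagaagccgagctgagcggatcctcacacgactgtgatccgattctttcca
ANKRD37: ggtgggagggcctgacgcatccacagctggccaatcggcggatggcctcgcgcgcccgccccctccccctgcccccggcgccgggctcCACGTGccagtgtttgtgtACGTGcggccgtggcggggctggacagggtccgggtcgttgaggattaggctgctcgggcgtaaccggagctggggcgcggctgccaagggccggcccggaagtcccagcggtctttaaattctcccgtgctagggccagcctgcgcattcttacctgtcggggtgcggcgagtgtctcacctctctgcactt
DDIT4: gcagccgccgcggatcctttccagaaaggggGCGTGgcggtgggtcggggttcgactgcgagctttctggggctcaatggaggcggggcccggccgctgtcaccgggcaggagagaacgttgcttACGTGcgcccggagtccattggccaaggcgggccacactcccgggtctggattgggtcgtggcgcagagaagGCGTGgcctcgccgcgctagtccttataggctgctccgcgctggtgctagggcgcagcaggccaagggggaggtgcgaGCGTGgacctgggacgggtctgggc
ADM: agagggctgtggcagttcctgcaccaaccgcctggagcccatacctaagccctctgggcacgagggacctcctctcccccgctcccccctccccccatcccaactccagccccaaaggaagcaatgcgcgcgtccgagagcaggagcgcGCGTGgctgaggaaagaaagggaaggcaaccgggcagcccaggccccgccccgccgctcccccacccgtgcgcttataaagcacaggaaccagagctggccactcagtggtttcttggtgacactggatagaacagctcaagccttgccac
CA9: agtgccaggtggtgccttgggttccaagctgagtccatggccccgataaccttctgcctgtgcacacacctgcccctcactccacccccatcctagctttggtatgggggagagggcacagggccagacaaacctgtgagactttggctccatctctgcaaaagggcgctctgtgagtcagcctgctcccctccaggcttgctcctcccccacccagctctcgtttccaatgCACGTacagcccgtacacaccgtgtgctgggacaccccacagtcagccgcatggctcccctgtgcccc
DTL: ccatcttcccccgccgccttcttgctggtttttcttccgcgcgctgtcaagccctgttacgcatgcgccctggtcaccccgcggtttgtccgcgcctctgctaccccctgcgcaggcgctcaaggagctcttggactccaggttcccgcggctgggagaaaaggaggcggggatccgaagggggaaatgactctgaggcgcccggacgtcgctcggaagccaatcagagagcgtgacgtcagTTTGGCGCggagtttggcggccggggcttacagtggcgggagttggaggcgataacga
POLE2: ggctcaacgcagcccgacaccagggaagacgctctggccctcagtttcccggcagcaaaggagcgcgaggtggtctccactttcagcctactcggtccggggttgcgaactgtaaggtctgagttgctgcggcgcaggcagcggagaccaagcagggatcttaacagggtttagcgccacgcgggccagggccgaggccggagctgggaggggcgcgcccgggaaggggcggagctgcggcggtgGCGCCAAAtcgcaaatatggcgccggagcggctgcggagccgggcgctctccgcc
KIF11: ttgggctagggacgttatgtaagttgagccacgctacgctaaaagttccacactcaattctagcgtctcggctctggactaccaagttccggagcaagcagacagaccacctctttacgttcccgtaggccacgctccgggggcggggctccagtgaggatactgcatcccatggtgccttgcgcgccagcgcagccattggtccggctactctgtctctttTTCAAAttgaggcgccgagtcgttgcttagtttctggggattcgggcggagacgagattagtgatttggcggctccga
Of the 10 genes with the highest fold change described next, 8 had a window, and all 8 held the core in at least 1 window. The core occurred in 48.4% of all 35116 promoter windows in the table and in 29 of 45 windows (64.4%) of glycolysis genes, most of which rose, 35 of 51 (68.6%) of DNA replication genes and 25 of 40 (62.5%) of mitosis genes, most of which fell. Some genes have several windows. Counted per gene, at least 1 window held the core in 19 of 20 glycolysis, 30 of 40 replication and 22 of 30 mitosis genes. Over all genes with a window the count was 14318 of 27305. The E2F motif was in 14 of 51 windows (27.5%) of DNA replication genes against 1.15% of all windows, and TTTGAA was in 24 of 40 windows (60.0%) of mitosis genes against 15.2%. A match describes the letters and is neither a binding site nor a cause. The share among all genes tested and among HIF targets was not used because fewer than 80% of them had a window.

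Hypoxia changed 6083 genes in shTIP60 cells, 39.2% of those tested, with 3007 higher (19.4%) and 3076 lower (19.8%). These 2 shares are the background for every count of list members below. Past a fold of 1.5 the counts were 1016 higher (6.55%) and 710 lower (4.57%), in edgeR's test against that fold. Of the called genes, 243 rose at least 4-fold and 91 fell at least 4-fold. The highest and lowest libraries of the groups did not overlap in 12153 genes (78.3%), which with 2 against 2 libraries is a weak criterion. All 6083 genes called were among these, so a lack of overlap adds no support to a call. With library totals in place of TMM factors, 1899 genes were higher and 4859 lower (28.1% higher against 49.4%), and the median of all genes went from -0.02 to -0.23, so each direction here is relative to that scaling. Without normoxia library A 3786 genes were called (1870 higher, 1916 lower and 991 past 1.5-fold), and without hypoxia library A 3877 (1860 lower, 1034 past 1.5-fold). Without hypoxia library B 1948 were lower.

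**Figure D1:**
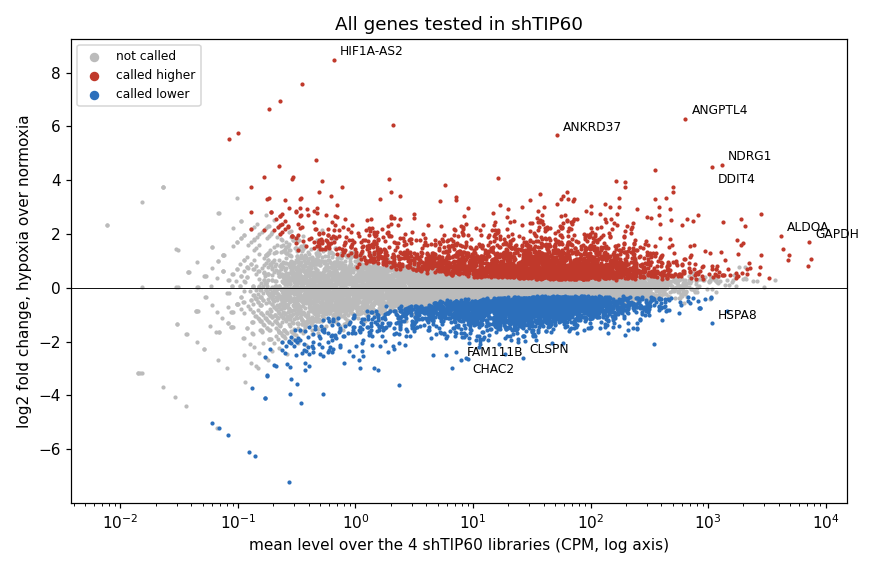
Mean level over the 4 shTIP60 libraries (CPM, log axis) against the log2 fold change with hypoxia, 1 point per gene tested, red and blue for the 3007 genes called higher and the 3076 called lower. The highest changes among abundant genes, with C4orf47 and SNAR-E passed over, are ANGPTL4 (6.28) and ANKRD37 (5.66).

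ANGPTL4, a secreted inhibitor of lipoprotein lipase (chromosome 19, 8428173 to 8439254, GRCh37), was at 15.7 and 17.0 CPM in normoxia and 1308 and 1230.4 CPM in hypoxia. Both hypoxic libraries exceeded both normoxic ones, as in every gene called higher, and the change was 6.28 ± 0.24 (adjusted p = 1.19e-10). ANKRD37, an ankyrin repeat gene of the HIF response, went from 2.21 and 1.81 to 107 and 96.6 CPM (5.66 ± 0.30). NDRG1, a stress-responsive gene, went from 97.7 and 111 to 2614 and 2389 CPM (4.58) and DDIT4, an inhibitor of the growth kinase mTORC1, from 99.7 and 84.8 to 2033 and 2086 CPM (4.48). These 4 held the first places among called genes at 5 CPM or more, with C4orf47 and SNAR-E passed over in the rankings. ADM, the vasodilator peptide adrenomedullin, went from 34.4 and 31.5 to 678 and 680.1 CPM (4.36), and CA9, a carbonic anhydrase that acidifies the surroundings, from 1.93 and 1.76 to 32.7 and 29.4 CPM (4.07). HILPDA, which protects lipid droplets from lipolysis, rose by 3.96. PFKFB4 and HK2, which regulate and start glycolysis, rose by 3.93 and 3.74, and the enolase ENO2 by 3.74. Among the 44 canonical HIF targets tested of 47, all 44 rose (19.4% of all genes rose), with a median log2 change of 2.75 against -0.02 over all genes. LOX, RORA and VLDLR did not pass the filter on low counts. EFNA1 rose least (0.50). With HILPDA also rising, the stored-lipid coat protein PLIN2 went from 21.7 and 19.2 to 89.5 and 99.8 CPM (2.21 ± 0.15).

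**Figure D2:**
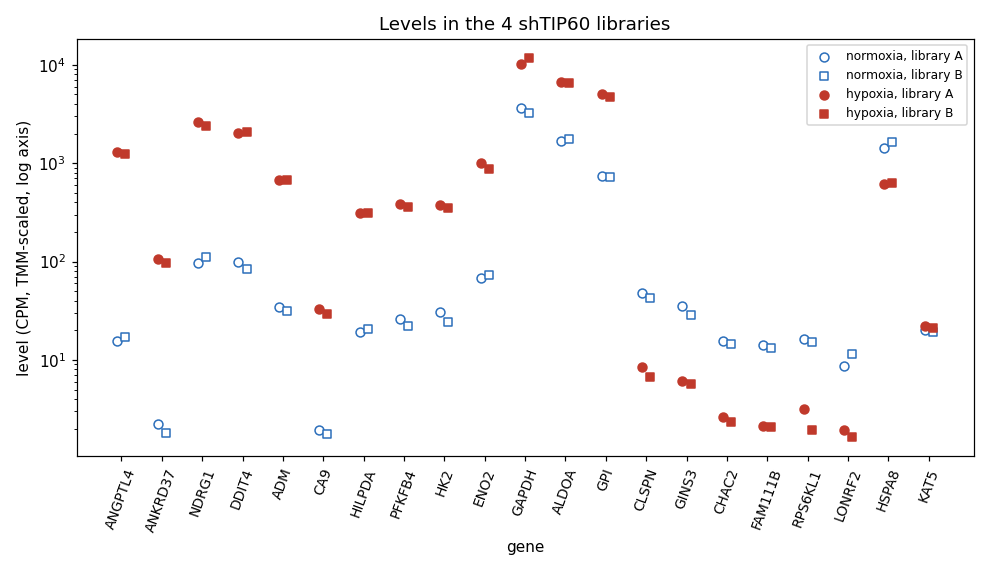
Level in each shTIP60 library (CPM, log axis), open blue for normoxia and filled red for hypoxia, circles for library A and squares for library B. ANGPTL4 to GPI stand higher in both hypoxic libraries, CLSPN to HSPA8 lower, and KAT5 lies between 19.1 and 22.0 CPM in all 4.

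Among the largest gains in CPM were messengers of glycolysis. GAPDH went from 3603 and 3222 to 10291 and 11797 CPM (log2 1.69 ± 0.14), ALDOA from 1696 and 1762 to 6646 and 6546 CPM (1.93) and GPI from 747 and 721 to 5108 and 4729.5 CPM (2.74). The 10 genes with the largest gain, which also included ACTG1, AKAP12, EEF2, PKM, ENO1, PGK1 and ERRFI1, held 19.98% of the summed gain of all genes called higher. The 10 largest losses held 6.024% of the summed loss. GAPDH, ACTG1, EEF2, ENO1 and PKM have near-identical copies or pseudogenes that the counting could split, so their counts are uncertain. Of 22 genes of glucose transport and glycolysis, 20 rose and 1 fell (median 1.66), from the uptake step (SLC2A1, SLC2A3) to lactate export. PGK1, which makes ATP in glycolysis, went from 716 and 694 to 3500.4 and 3410.3 CPM (2.29) and the aldolase ALDOC from 66.8 and 63.7 to 616 and 662 CPM (3.29). The monocarboxylate exporter SLC16A3 rose (1.38) while SLC16A1 fell (-0.35), and the latter lost its call without any 1 of the 4 libraries and with RLE factors, another scaling.

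Of 48 nuclear-encoded respiratory chain genes, 22 fell, against 19.8% of all genes, and 0 rose (2 in DESeq2), with a median of -0.37. CYCS, the electron carrier cytochrome c, went from 136 and 122 to 67.2 and 60.2 CPM (-1.02), the ATP synthase gene ATP5G1 from 144 and 153 to 72.6 and 73.5 CPM (-1.03), and the complex I subunit NDUFS1 from 76.9 and 73.0 to 46.4 and 43.7 CPM (-0.73). The lower count went to 11 without normoxia library A, and to 12 without hypoxia library A or B. Among pyruvate dehydrogenase and citrate cycle genes, 9 of 32 fell and 5 rose, shares not far from those over all genes (19.8% and 19.4%). The 4 libraries alone gave 16 lower and 8 higher, with 18 lower with library totals, 5 lower without hypoxia library A, and 3 higher with library totals, without normoxia library B or without hypoxia library A. FH, fumarase, fell (-1.05), while PDK1, the kinase that switches off pyruvate dehydrogenase, rose by 3.31 and its paralog PDK3 by 1.44. Mitochondrial ribosomal proteins fell in 31 of 40 (median -0.59), and in 18 without hypoxia library A. MRPL20 (-1.25) and MRPL47 (-1.11) were among them. BNIP3 and BNIP3L, receptors that mark mitochondria for autophagy, went from 33.2 and 29.5 to 209.6 and 212 CPM (2.75) and from 28.3 and 27.2 to 238 and 239.6 CPM (3.11). Autophagy genes rose in 10 of 20 and fell in 1, and without normoxia library A 5 rose, and with library totals 6. Lower calls numbered 0 without hypoxia library A and 2 with library totals or with the 4 libraries alone. Glycogen genes rose in 6 of 11 and fell in 2, led by the synthase GYS1 (1.41), the branching enzyme GBE1 (2.25) and the targeting subunit PPP1R3B (2.43). Those that fell numbered 1 without normoxia library A or hypoxia library A and 4 with the 4 libraries alone.

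Enzymes that hydroxylate and crosslink collagen gave the highest changes of the collagen list. The prolyl hydroxylase P4HA1 went from 31.1 and 32.2 to 322 and 313 CPM (3.33), the lysyl hydroxylase PLOD2 from 26.6 and 24.9 to 175 and 179 CPM (2.78) and the crosslinking enzyme LOXL2 from 108 and 111 to 843 and 841 CPM (2.94). Of 18 genes on that list, 8 rose and 2 fell, against 19.4% and 19.8% of all genes. COL4A1 and COL4A2, near or below 2 CPM in every library, were called lower (-1.29 for COL4A1), and both lost their calls in DESeq2. The call of COL4A1 was also lost without normoxia library B or hypoxia library A, and that of COL4A2 without any 1 of the 4 libraries. The list median of 0.18 turned negative with library totals. Among oxygen-dependent JmjC enzymes, 12 of 23 rose, where 19.4% of all genes rose, and 5 fell, near the 19.8% of all genes that fell. KDM3A, a histone H3 lysine 9 demethylase, went from 39.6 and 38.8 to 314 and 313 CPM, and KDM4B and KDM4C rose by 1.97 and 1.72. C14orf169, the ribosomal protein oxygenase known as RIOX1 or NO66, fell (-2.50), as did JMJD4 (-1.32) and MINA (-0.75).

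Of the oxygen-sensing machinery, 5 of 14 genes tested rose and 2 fell, against 19.4% and 19.8% of all genes. With library totals 4 fell and the list median went from 0.12 to -0.09, and with the 4 libraries alone 4 fell. HIF1A went from 97.6 and 99.3 to 50.6 and 51.8 CPM (-0.94 ± 0.15, adjusted p = 0.000132). Both hypoxic libraries were below both normoxic ones, as in every gene called lower. EPAS1, the HIF2 alpha subunit, went from 35.3 and 35.7 to 86.8 and 97.6 CPM (1.38 ± 0.13). EGLN1 and EGLN3, feedback targets that hydroxylate HIF alpha, rose by 1.89 and 2.58, and CITED2, a competitor of HIF for its coactivators, by 1.80. ARNT2 fell (-0.72). ARNT was at 0.40 and did not pass (adjusted p = 0.0611), and VHL (-0.24), HIF1AN (-0.25) and EGLN2 (-0.51, an overlapping gene with uncertain counts) were not called. HIF1A-AS2, antisense to HIF1A, had 0 counts in normoxia and 86 in hypoxia, at least 29.8-fold higher against a floor of 3 counts over the group (0.0442 CPM). Its counts are uncertain because the strand setting of the counting is not given. The NuA4 complex had 2 of 19 members higher (C20orf20 and MBTD1, 0.64 and 0.73) and 5 lower, against 19.4% and 19.8% of all genes, with RUVBL1 at -0.90 and YEATS4 at -0.67. The lower count was 2 without hypoxia library A and 3 without any other library or with RLE factors, while RUVBL1 and YEATS4 kept their calls. MBTD1 lost its call with library totals and in 3 of the 4 fits with a library removed.

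DNA replication genes fell together. Of 47 tested, 44 fell and none rose (median -1.28), where 19.8% of all genes fell. GINS3, a subunit of the replicative helicase, went from 35.0 and 28.8 to 6.05 and 5.66 CPM (-2.44 ± 0.23). CLSPN, the checkpoint mediator claspin, went from 48.3 and 42.8 to 8.51 and 6.63 CPM (-2.59 ± 0.29), and POLE2, a polymerase epsilon subunit, from 16.6 and 19.7 to 4.73 and 5.08 CPM (-1.89 ± 0.20). ORC6 of the origin complex (-1.89), the clamp loader RFC3 (-1.51) and DTL, which targets CDT1 for destruction (-1.57), also fell. No library of hypoxia overlapped normoxia in these 6, as in all 6083 genes called. Homologous recombination and damage signalling fell in 29 of 36 and rose in 1 (median -1.01). BRIP1 (-1.77), XRCC2 (-1.87), BLM (-1.35) and BRCA2 (-1.28) fell. ATM was called higher (0.73), a call lost when any of the 4 libraries was removed and with library totals. With C4orf47 and SNAR-E passed over, the lowest changes at 5 CPM or more were FAM111B, a protease gene (-2.69), RPS6KL1 (-2.63), the glutathione-degrading CHAC2 (-2.60) and CLSPN. SPRTN, a protease for DNA-protein crosslinks, fell (-2.10).

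Of 36 mitotic genes, 21 fell and 2 were called higher (median -0.49). The lower count was 9 without normoxia library A or hypoxia library B, 14 without hypoxia library A, and 32 with library totals. The higher count was 1 without hypoxia library B and 0 without any other library or with library totals. CCNB1, cyclin B1, went from 271 and 258 to 124 and 119.5 CPM (-1.12), FOXM1, a transcription factor for mitotic genes, from 197 and 199 to 88.4 and 79.2 CPM (-1.24), and the spindle motor KIF11 from 59.6 and 56.8 to 33.7 and 30.5 CPM (-0.86). Nucleotide synthesis fell in 15 of 24 and rose in 2, with CTPS1 at -1.49 and SHMT1 at -0.98, and 9 fell without normoxia library A or hypoxia library B and 10 without either of the others. Of G1 regulators 9 of 22 rose and 6 fell, against 19.4% and 19.8% of all genes, and each of the 4 libraries left out gave 6 higher. CCNG2, an atypical cyclin that accompanies cell cycle exit, went from 7.38 and 10.2 to 69.9 and 73.5 CPM (3.02), and the kinase inhibitors CDKN1B and CDKN1C rose by 1.01 and 1.47. RBL1 and E2F8, repressors of E2F genes, fell (-1.35 and -1.25). Among p53 targets, 9 of 26 rose and 5 fell, the latter close to the 19.8% of all genes that fell, and the lower count was 3 without normoxia library B or either hypoxia library. GDF15 rose by 2.54 and CDKN1A by 0.66, and C12orf5, the glycolysis inhibitor TIGAR, fell (-1.92).

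**Figure D3:**
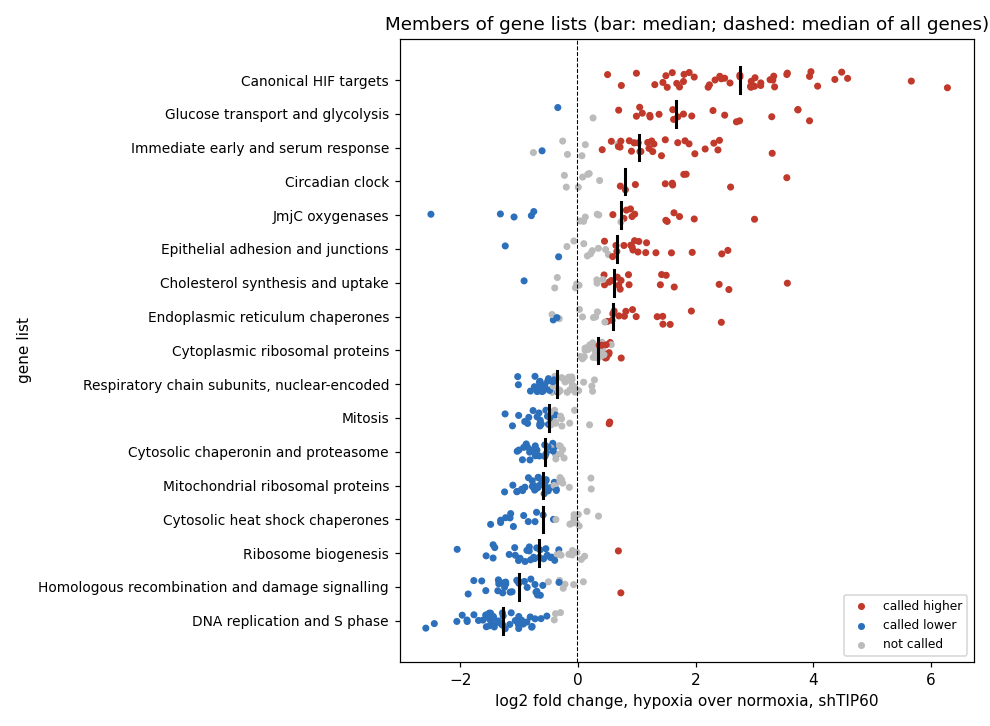
Log2 fold change (hypoxia over normoxia, shTIP60) for every tested member of 17 lists, red for called higher, blue for called lower, grey for not called. The medians run from 2.75 (canonical HIF targets) to -1.28 (DNA replication), and the dashed line is the median of all genes (-0.02).

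Ribosome biogenesis fell in 27 of 37 (median -0.66), with NIP7 from 112 and 109 to 39.1 and 42.0 CPM (-1.45) and LTV1 from 58.3 and 49.2 to 18.2 and 18.2 CPM (-1.56). NOB1, an endonuclease for small-subunit RNA, rose (0.68). The chaperonin and proteasome list fell in 25 of 33 with none higher (median -0.57), with PSMD12 at -1.04 and CCT2 at -0.82. Cytosolic heat shock chaperones fell in 13 of 23, with HSPH1 at -1.49 and DNAJA1 at -1.32. HSPA8, the largest CPM loss, went from 1435 and 1656 to 614 and 627 CPM (-1.32 ± 0.20), and it has processed copies that make its count uncertain. Endoplasmic reticulum genes rose in 15 of 25 and fell in 2 (median 0.59). Lower calls numbered 0 without normoxia library A or hypoxia library A, 1 without either other library, and 4 with library totals or the 4 libraries alone. The quality-control genes SYVN1 and EDEM1 rose by 1.44 and 1.93, HERPUD1 by 1.56, and the oxidase ERO1L went from 41.1 and 43.3 to 235 and 221 CPM (2.43). Of ATF4 targets 11 of 28 rose and 4 fell, against 19.4% and 19.8% of all genes. DDIT3 was at 2.18, and PSAT1, a serine synthesis enzyme, at -1.08. The higher count was 7 without normoxia library A, and the lower count 2 without normoxia library B or hypoxia library B and 6 with library totals. Cytoplasmic ribosomal protein genes had 12 of 44 higher, where 19.4% of all genes were higher, and none lower. That count was 1 with library totals, 2 without normoxia library A or B, 7 without hypoxia library A and 3 without B. The higher count was 19 in DESeq2, 27 with a replicate block and 34 with the 4 libraries alone. The many copies of these genes make their counts uncertain. Of 24 genes of splicing and CLK kinases, 9 fell and 4 rose (median -0.17), against 19.8% and 19.4% of all genes. With library totals 13 fell and 2 rose, and CLK1 lost its higher call. The splicing factors SRSF3 (-1.31), TRA2B (-1.18) and SRSF2 (-1.18) were among those that fell. CLK2 and CLK3, kinases that phosphorylate splicing factors, rose by 0.95 and 1.45.

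Of 36 immediate early genes, 27 rose and 1 fell (median 1.04). Those that fell numbered 0 without normoxia library A or either hypoxia library and 3 with library totals. DUSP1, a phosphatase for stress kinases, went from 9.22 and 11.3 to 104 and 98.9 CPM (3.30 ± 0.18), and CTGF, KLF4, FOSL2 and DUSP5 rose by 2.40, 2.16, 2.31 and 2.38. Angiogenic factors rose in 12 of 19. VEGFA went from 60.1 and 55.0 to 484 and 401 CPM (2.94 ± 0.15) and PDGFB rose by 1.73, while FGF2 fell (-1.02). The clock list rose in 10 of 17 with none lower (1 with library totals), including PER1 (2.59), PER2 (1.80), DBP (1.84) and the repressors BHLHE40 (3.55) and BHLHE41 (1.60). NF-kB genes rose in 9 of 25 and fell in 3, against 19.4% and 19.8% of all genes. Those that rose were led by NFKB2 (1.67), REL (1.26) and BIRC3 (1.96), and 5 rose with library totals, without normoxia library A or without hypoxia library B. Lower calls numbered 1 without any 1 of the 4 libraries and 5 with library totals. Epithelial adhesion genes rose in 18 of 29 and fell in 2, and in 1 without any 1 of the 4 libraries. CDH1, E-cadherin, went from 42.0 and 39.6 to 160.5 and 153 CPM (1.94 ± 0.18), and ITGB4, an integrin of hemidesmosomes, rose by 2.44. GJA1, a gap junction protein, fell (-1.24). In the Wnt list AXIN2 and TCF7, feedback and effector genes, fell (-1.28 and -1.12) and SOX9 rose (1.44). There 6 of 18 were higher and 6 lower, against 19.4% and 19.8% of all genes, and 2 higher with library totals or without normoxia library A. Removing hypoxia library A left 4 higher. Interferon-stimulated genes fell in 7 of 29, a share near the 19.8% of all genes, while their median was -0.58 against -0.02. CMPK2 was at -2.03 and HERC6 at -0.86, and ISG20 rose (1.92). The lower count was 13 with library totals, 17 with the 4 libraries alone, 11 with a replicate block and 3 without normoxia library A or hypoxia library B. 1 gene rose, and 2 without either of these libraries or with RLE factors and 3 in DESeq2, with a block or with the 4 libraries alone. HLA-E rose (0.82), and the transactivator NLRC5 fell (-1.04). Of BCL2 family and death receptor genes, 10 of 25 rose and 2 fell, against 19.4% and 19.8% of all genes. The BH3-only gene BIK (1.37) and the death receptors TNFRSF10B (0.85) and TNFRSF10D, a decoy (1.81), rose, while the pore-forming BAK1 (-0.63) and the ligand TNFSF10 (-2.07) fell. Those that fell numbered 1 without any 1 of the 4 libraries or in DESeq2, 4 with library totals and 5 with the 4 libraries alone. TNFSF10 lost its call without any 1 of the 4 libraries, in DESeq2 and without the filter on low counts. Of 20 nuclear long noncoding RNAs, 7 rose and 1 (SNHG15) fell, against 19.4% and 19.8% of all genes. Those that rose included MALAT1 (1.21), KCNQ1OT1 (1.10) and UCA1 (1.55). With library totals 5 rose and 2 fell, and the list median went from 0.25 to 0.03.

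Of 26 cholesterol synthesis and uptake genes, 17 rose and 1 fell (median 0.62), and 11 rose with library totals. Lower calls numbered 0 without normoxia library A or either hypoxia library and 3 with library totals, a replicate block or the 4 libraries alone. INSIG1 and INSIG2, which hold the sterol sensor in the endoplasmic reticulum, went from 47.4 and 38.8 to 264 and 245 CPM (2.56 ± 0.21) and from 10.2 and 9.39 to 119 and 111 CPM (3.56 ± 0.24). SREBF2, the master regulator of sterol synthesis, rose by 1.40, and the sterol carrier STARD4 by 2.40. In shNT, 5 of the same genes were called higher and 6 lower (median -0.05, where 20.7% and 20% of all genes were called higher and lower), and the median difference of responses was 0.63, against -0.01 over all genes. None of the 26 was called for the difference in the fit of all 16 libraries. A fit of the 8 libraries of the 2 lines called 51 genes for the difference (0.336% of those tested), 24 with the higher and 27 with the lower response in shTIP60, among them 4 of the 26, FDFT1 (1.27), HMGCS1 (1.26), INSIG1 (1.45) and IDI1 (1.00). Members of other lists called in that fit included PLIN2 (1.18), LPIN1 (1.09) and VEGFA (0.90) with the higher response, and SLC2A3 (-2.65), THBS1 (-1.53), TGFA (-1.12), SMAD3 (-0.80) and FOSL2 (-0.88) with the lower. These genes were picked from that fit after their values were seen.

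Genes of fatty acid synthesis and storage moved in both directions. Of 27 genes of fatty acid synthesis and storage, 11 rose and 5 fell, the latter near the 19.8% of all genes. The desaturase SCD went from 1029 and 882 to 3080.5 and 2943 CPM (1.66) and the phosphatidate phosphatase LPIN1 from 22.2 and 23.5 to 89.9 and 89.9 CPM (1.98), and GPAM, which starts glycerolipid synthesis, fell (-1.39). The lower count was 2 without normoxia library A or either hypoxia library, 3 without normoxia library B and 9 with library totals. Of 20 aminoacyl-tRNA synthetases, 8 fell and 2 were called higher, with FARSB at -1.04 and MARS at -0.88. The lower count was 4 without normoxia library A or hypoxia library A and 5 without hypoxia library B, and the higher count 1 without any 1 of the 4 libraries and 0 with library totals. CDK19, the paralog of CDK8 in the Mediator kinase module, went from 8.92 and 11.9 to 23.2 and 23.6 CPM (1.17), and MED13L rose by 0.70. The carbonic anhydrase CA12 rose by 1.30 and CA2 fell (-1.01).

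The response of shTIP60 was set against that of shNT, which has its own libraries in both oxygen conditions. Of the genes that rose in shTIP60, 2380 of 3007 (79.15%) also rose in shNT, 623 were not called there and 4 fell. Of the genes that fell, 2367 of 3076 (76.95%) also fell in shNT, 708 were not called and 1 rose. All 44 canonical HIF targets tested rose in each line, with medians of 2.75 and 2.86. The interaction test called 5 genes (0.0322% of those tested), where 910 (5.86%) had an unadjusted p under 0.05 and DESeq2 called 59. A count this small does not show that other responses were alike. IGFBP3, a carrier of insulin-like growth factors, was at 590.4 and 618 CPM in normoxia and 1452 and 1532 CPM in hypoxia in shTIP60 and at 1.39 and 1.62 CPM in normoxia and 42.7 and 27.4 CPM in hypoxia in shNT. It rose by 1.30 ± 0.23 in shTIP60 and 4.53 ± 0.29 in shNT, a difference of -3.23 ± 0.36 (adjusted p = 0.00184). SLC2A3, a glucose transporter whose reads can be shared with its copy SLC2A14, was at 219 and 225 CPM in normoxia and 1439 and 1431 CPM in hypoxia and at 6.04 and 6.30 CPM in normoxia and 241 and 266 CPM in hypoxia in shNT. Its rise was 2.69 ± 0.22 against 5.36 ± 0.26, a difference of -2.67 ± 0.31 (adjusted p = 0.00184). In both genes the shTIP60 normoxia libraries already stood above the shNT normoxia libraries, and the difference in normoxia was not tested here. PAG1, a membrane adaptor for Src-family kinase control, was at 6.22 and 3.77 CPM in normoxia and 4.88 and 4.69 CPM in hypoxia and at 3.88 and 3.08 CPM in normoxia and 18.9 and 17.8 CPM in hypoxia in shNT, a difference of -2.46 ± 0.34 (adjusted p = 0.0108). The shTIP60 groups overlapped for PAG1 and it was not called there. HMOX1, the heme-degrading oxygenase, was at 52.1 and 51.4 CPM in normoxia and 106 and 144 CPM in hypoxia and at 18.4 and 19.4 CPM in normoxia and 18.5 and 16.7 CPM in hypoxia in shNT. Only in shTIP60 was it called, at 1.27 ± 0.14 against -0.11 ± 0.15, a difference of 1.37 ± 0.20 (adjusted p = 0.0185). ZNF608, a zinc finger gene under 5 CPM in every group and so outside the naming rule, differed by -1.79 ± 0.28 (adjusted p = 0.0298). The calls for IGFBP3 and SLC2A3 held with any 1 of the 8 libraries left out. HMOX1 was lost without each library except shTIP60 hypoxia A and shNT hypoxia A (adjusted p from 0.0798 to 0.211), PAG1 without shTIP60 normoxia A, either shTIP60 hypoxia library or shNT normoxia B, and ZNF608 without any of the 8.

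**Figure D4:**
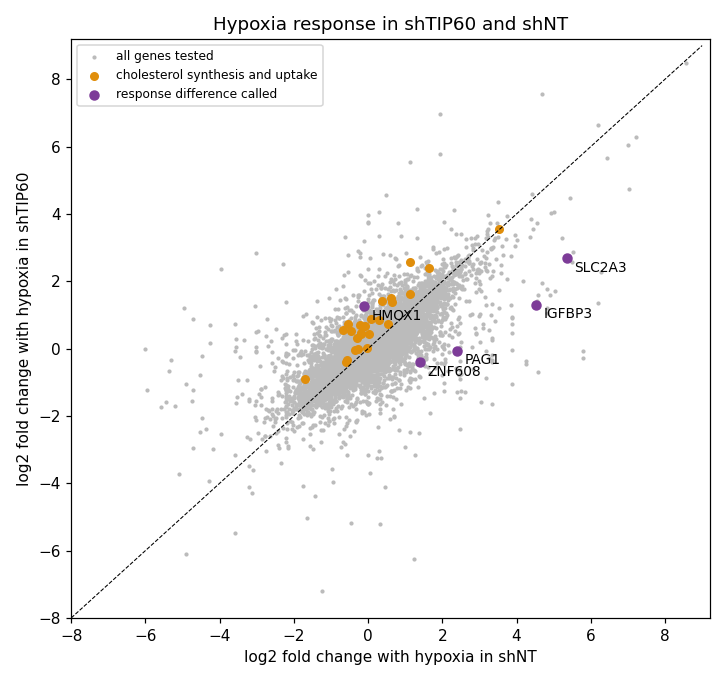
Log2 fold change with hypoxia in shNT (horizontal) and in shTIP60 (vertical), 1 point per gene tested, with cholesterol genes in orange and the 5 genes called for the difference in purple. The dashed line marks equal responses. SLC2A3 and IGFBP3 had a smaller log2 fold change in shTIP60 (2.69 against 5.36 and 1.30 against 4.53). In CPM both gained more in shTIP60, from higher normoxia levels.

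**Figure D5:**
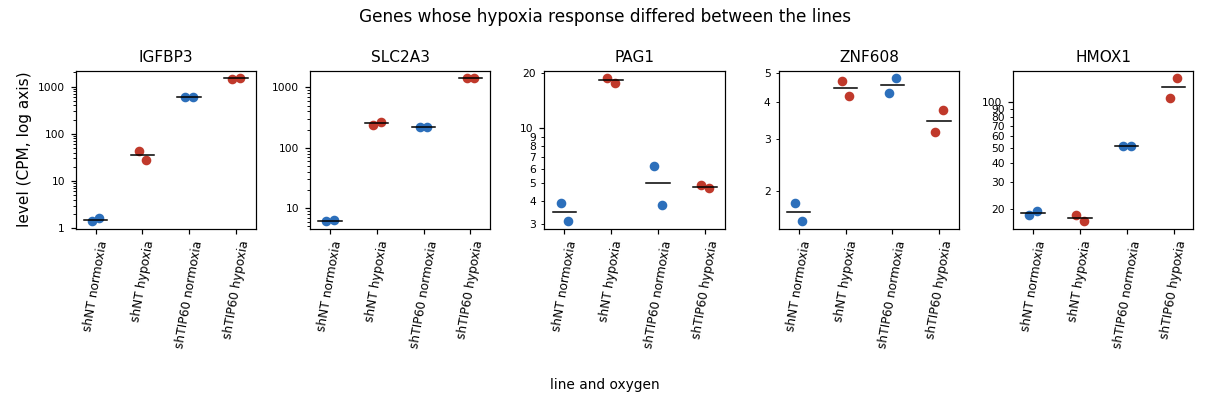
Level (CPM, log axis, a separate scale per gene) in each of the 8 libraries of shNT and shTIP60 for the 5 genes called, blue for normoxia, red for hypoxia, with the group mean as a line. For IGFBP3 and SLC2A3 the shTIP60 normoxia libraries stand above those of shNT.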

How the data were processed

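The authors deposited raw read counts per gene symbol, 1 column per library, and the labels record no scaling of these counts. Listed per the submitters' processing notes, with no role given, are GSNAP, HTSeq 0.5.4p5, R 3.0.3, DESeq 1.14.0 and build hg19 (GRCh37). Annotation and strand setting are not given in the sources used here, so overlapping genes and near-identical copies are uncertain. The labels call the replicates independent biological replicates. Columns carry library numbers, not replicate numbers.

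edgeR 4.0.16 (R 4.3.3, limma 3.58.1) removed low counts (at least 10 in enough libraries and 15 in total, keeping 15520 genes, 65.6%), applied TMM factors and fitted a robust quasi-likelihood model with 1 coefficient per group to all 16 libraries (residual degrees of freedom 8, biological coefficient of variation 0.132 in common). Two-sided p were adjusted over all genes, and glmTreat tested against 1.5-fold. Comparisons were hypoxia against normoxia in shTIP60, the same in shNT, and the difference of the responses. Total counts were 29562567 to 34233119 in shTIP60, and a floor of 3 counts covers counting error only, since reads are not independent molecules. Replicates differed by 8.58 (normoxia) and 10.9 (hypoxia) times counting variance, so none was a copy.

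Genes were named by rule: every tested HIF-sensing and NuA4 gene, the 10 highest and 10 lowest fold changes at 5 CPM or more with groups that do not overlap, the 10 largest gains and losses in CPM, up to 5 called list members by p in the leading direction and 3 in the other, the 8 highest and lowest response differences, and genes with at most 3 counts in a group. Genes named only by an open reading frame number and small RNAs were passed over in the rankings unless they were on a list (C4orf47 and SNAR-E). The members and the 42 lists were chosen with earlier results of these data known. Gene coordinates are GENCODE, lifted to GRCh37. Promoters are RefSeq on GRCh38.p14, and no coordinate was converted. In simulated counts for the shTIP60 comparison (15390 genes) the fit recovered 19.4%, 64.2% and 83.3% of genes changed 1.5-, 2- and 4-fold, with 9 of 120 calls false. For the difference (15433 genes) it recovered 4.48%, 25.4% and 80.3%, with 2 of 75 false. Each simulation changed only 67, 67 and 66 genes at these folds, where the data had 6083 genes called for hypoxia in shTIP60. The adjusted p depends on how many genes change, so these recovery rates need not hold for the data. Alternatives were DESeq2 1.42.0, RLE factors, library totals, other filters, fewer groups, a replicate block and leaving out each library. Some genes that meet the naming rule are not reported here.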

Additional observations from a re-analysis of the deposited data

Results flagged for a closer look

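The test of the difference between the hypoxia responses of shTIP60 and shNT called 5 genes (edgeR's quasi-likelihood test). The log2 difference was -3.227 for IGFBP3 and -2.667 for SLC2A3, which rose in both lines with a smaller fold and a larger CPM gain in shTIP60. It was -2.461 for PAG1 and -1.793 for ZNF608, which rose in shNT and were not called in shTIP60. It was 1.373 for HMOX1, called higher in shTIP60 and not called in shNT. Their normoxia levels in shTIP60 were above those in shNT in each library of IGFBP3, SLC2A3, ZNF608 and HMOX1, and the part of these levels in the difference was not tested. No group held the 4 samples that a check for outlying samples needs.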

How the results depend on the processing

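Of the 6083 calls, 5969 were shared with RLE factors, 4975 with library totals, 5965 with DESeq2 and 6048 with the 4 libraries alone. All shared calls kept their direction. A gene called in 2 fits of the same counts could hardly reverse, so the kept direction adds no support. For hypoxia in shTIP60, library totals gave 1899 higher and 4859 lower (666 and 1494 past 1.5-fold). The 4 libraries alone gave 4542 higher, and 2844 past 1.5-fold (1585 higher, 1259 lower). Leaving out a library gave 3786 to 4391 genes (1870 to 2160 higher, 1860 to 2254 lower), and 991 to 1233 past 1.5-fold (629 to 768 higher, 362 to 482 lower). The cause was not tested beyond fewer libraries. For the 5 response differences, no filter gave 106 (54 higher, 52 lower), a mean of 5 CPM 10 (2 and 8), the 8 libraries alone 51 (24 and 27), DESeq2 59 (31 and 28), and library totals 2 higher. Leaving out a library gave 2 to 10 (0 to 4 higher, 2 to 6 lower). The labels give no pairing of libraries A and B. The deviations of same-series libraries correlated at 0.0307 to 0.336 over 28 pairs of groups (0.0404 in shTIP60, 0.124 in shNT), all positive but not all over 0.1, so whether they are paired was not settled. A replicate block gave 72 differences (40 and 32) and 7488 hypoxia calls. Of 292 called named genes, 231 stayed called in each of the 4 fits with a shTIP60 library left out. With library totals 22 were lost, with DESeq2 3. Another 14 uncalled genes changed sign in some setting and were not called in either. Only 2 libraries per group limit the smaller changes.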
